A study of Mus musculus with 6 samples.

Results

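A set of 381 genes had low TPM 2 h after cultured mouse cortical neurons were depolarized and higher TPM at 6 h. They were chosen from the measured values. A gene had to have a mean expected count (reads assigned to it by RSEM, not normalized) of at least 100 at 0 h. Its mean TPM (a level per transcript length, scaled to the same total in each library) at 2 h had to be at most 0.5 times that at 0 h, and its mean TPM at 6 h at least 2 times that at 2 h. Of the 43432 genes listed, 11512 met the count limit and 519 met the whole rule. From these, 138 were dropped by symbol: 117 starting with Zfp, 9 with Zbtb, 2 with Zkscan, 3 with Zscan, 3 with Zbed and 4 with Kcn. The 381 that remained are called members here, and the 11512 genes at the count limit are the background for their features.

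The libraries came from wild-type C57BL/6 cortical neurons taken from embryos at E16.5, labelled as male and female pooled, and kept for 7 days in culture. All groups were silenced overnight from day 6 with 1 µM TTX, a sodium channel blocker, and 100 µM DL-AP5, an NMDA receptor blocker. Neurons then received 55 mM KCl for 2 h or 6 h, and the 0 h group had been silenced but not depolarized. Each group had 2 libraries, labelled as biological duplicates, with 25959298 to 28573067 expected counts each. Genes of neurons were high throughout: 18 marker genes summed to between 7946 and 8330 TPM per library. Glial genes were present too: 9 astrocyte markers summed to between 3275 and 4701 TPM, and 8 oligodendrocyte-lineage markers to between 98.9 and 152 TPM. The 8 microglial markers summed to at most 7.07 TPM and the 9 markers of endothelium and mural cells to at most 5.33 TPM. The 9 markers of dividing cells were present and reached a sum of 307 TPM.

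High potassium opens voltage-gated calcium channels and starts a wave of immediate-early transcription, followed by a later wave of effector genes. A transcript can fall within a few hours where cells break it down quickly once less of it is made, or where it is actively destabilized. Neither the making nor the breakdown of RNA was measured here. Short-lived mRNAs often encode regulators, such as transcription factors and ubiquitin ligase adaptors, while mRNAs of metabolic enzymes and ribosomal proteins tend to last longer.

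The rule chose the members by the 2 h values, so the depth of the dip is given as a description and not tested. The median member stood at 0.351 of its 0 h TPM at 2 h, against 0.891 for all genes at the count limit. At 6 h the median member was at 0.978 of its 0 h TPM, against 0.899. Of the 381 members, 7 were at or under 0.1 of their 0 h level at 2 h and 76 at or under 0.25, while 164 lay over 0.25 and up to 0.4 and 141 lay over 0.4. On rounded counts, DESeq2 called 292 members lower at 2 h than at 0 h (adjusted p at most 0.05 and a log2 fold change beyond 1), where 5.94% of all tested genes were called lower. It called 363 members higher at 6 h than at 2 h, where 10.1% of all tested genes were so called. Both 2 h libraries lay under both 0 h and both 6 h libraries in 379 members, against 25% of the genes at the count limit. These 3 counts use the contrasts that chose the members, and nothing is read from them.

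The 2 members whose libraries overlapped were Rps27 and Gm2223, named after their values were seen. Rps27, which encodes a ribosomal protein, was at 7536 TPM in 0 h replicate 1 and at 0 TPM in every other library. Its expected counts fell only from 154 and 71.6 at 0 h to 55.6 and 59.3 at 2 h, none of them whole, so reads were shared with other genes. RSEM gave it an effective length of 1.28 bases in that library and of 0 in the rest, so its TPM carries no dip. Gm2223 was at 0.38 and 14.44 TPM at 0 h, then 1.9 and 4.71 at 2 h, then 12.61 and 8.78 at 6 h. Its 2 h values lay between its 0 h replicates.

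The 15 deepest dips were taken among members with whole counts in at least 4 libraries and no overlapping gene on the same strand. They were in genes of varied level, and their 3 lowest ratios were in genes at a few TPM. Mterf1a, at 0.0619 on counts that were not whole, was not among them. Parp16 (ENSMUSG00000032392, chromosome 9, 65195353 to 65239224, plus strand, GRCm38), which encodes an ADP-ribosyltransferase of the endoplasmic reticulum, was at 4.62 and 5.1 TPM at 0 h. It was at 0.17 and 0.33 TPM at 2 h and at 0.58 and 1.03 TPM at 6 h, so all 3 groups were apart and recovery was partial. Map10 (ENSMUSG00000050930, chromosome 8, 125669818 to 125673359, plus strand), a microtubule-associated protein gene with 1 exon, was at 6.59 and 5.06 TPM at 0 h, then 0.38 and 0.42 at 2 h, then 3.58 and 4.71 at 6 h. Both 2 h values were far under the rest, and the 6 h values came back to below those at 0 h. Jrk (ENSMUSG00000046380, chromosome 15, 74702301 to 74709535, minus strand), a gene derived from a DNA transposase, was at 3.97 and 4.35 TPM at 0 h, then 0.26 and 0.34 at 2 h, then 1.8 and 1.86 at 6 h. Its level at 6 h was still 0.44 of that at 0 h.

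Others of the 15 deepest dips, among members with whole counts and no overlapping gene on the same strand, came from several protein families. Jrkl, a relative of Jrk, was at 8.26 and 7.42 TPM at 0 h, then 1.38 and 0.71 at 2 h, then 7.69 and 6.04 at 6 h. Harbi1, derived from another kind of transposase, was at 10.18 and 11.94 TPM at 0 h, then 1.48 and 1.76 at 2 h, then 4.2 and 4.31 at 6 h. The former was back within its 0 h range in 1 of 2 libraries at 6 h, and the latter was not. On counts Harbi1 was not called higher at 6 h vs 2 h (log2 fold change 0.63, DESeq2 adjusted p 0.0791). Wdr5b, an intronless relative of the chromatin subunit gene Wdr5, was at 9.88 and 10.26 TPM, then 1.3 and 1.28, then 4.37 and 3.59. Slc25a32, a carrier of the mitochondrial inner membrane, was at 6.27 and 5.46 TPM, then 0.96 and 0.62, then 3.79 and 4.85. Sox10, a transcription factor of the oligodendrocyte lineage, was at 5.92 and 8.38 TPM, then 0.8 and 1.27, then 4.9 and 4.82. All of these had 2 h values below every value at 0 h and 6 h. The remaining genes of this group were Rsl1, Gm12258, AI429214, 2610008E11Rik, Zswim3, Slc16a13 and Ankrd49, with 2 h to 0 h ratios from 0.0926 to 0.147.

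**Figure D1:**
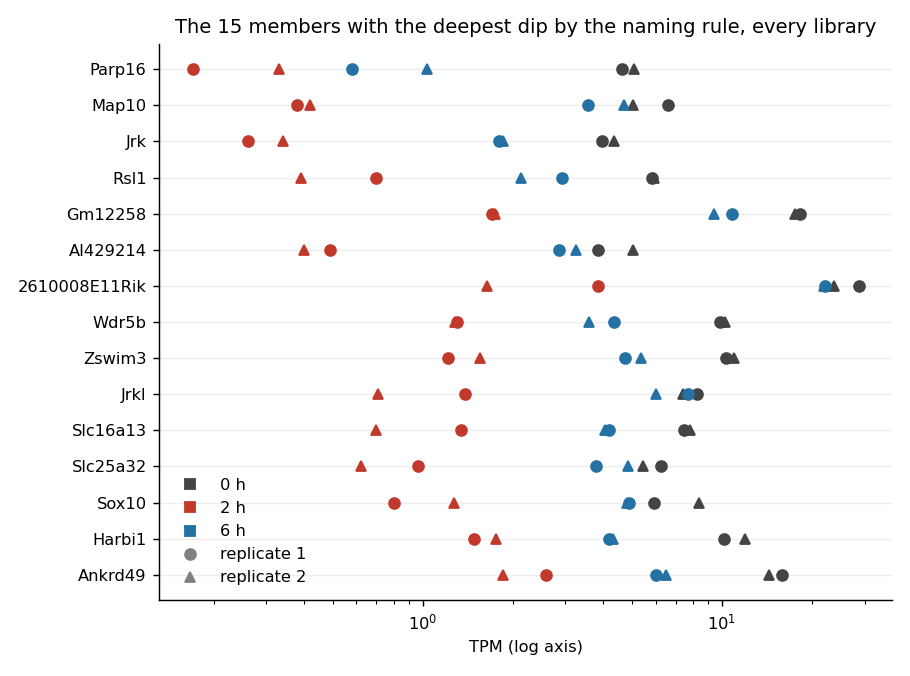
TPM (log axis) in each of the 6 libraries for the 15 members with the lowest ratio of 2 h to 0 h among those with whole counts and no overlapping gene on the same strand, one gene a row, with groups by colour and replicates by shape. In every row both 2 h points lie left of all others, and for Parp16 the 6 h points (0.58 and 1.03 TPM) stay well left of the 0 h points (4.62 and 5.1 TPM).

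The 10 most abundant members, Rps27 apart, dipped less deeply than the 15 genes above, which were picked for their depth. Their 2 h to 0 h ratios ran from 0.202 in 5730507C01Rik to 0.498 in Pfkfb3. These lay on both sides of the median member, at 0.351. Dctn4, a dynactin subunit gene, was at 83.47 and 82.2 TPM at 0 h, then 40.16 and 36.48 at 2 h, then 83.22 and 83.11 at 6 h. Slx4, which encodes a scaffold of DNA repair nucleases, was at 61.34 and 70.59 TPM, then 21.51 and 22.34, then 52.41 and 52.02. The clone-named zinc finger gene 5730507C01Rik was at 106.35 and 85.68 TPM, then 24.95 and 13.91, then 73.26 and 79.33. In each of these the 2 h values were the lowest, and Dctn4 was back within about 1 TPM of its 0 h level. Apart from Rps27, the 10 most abundant members also held March7, Pfkfb3, Armc10, Msantd4, Dpf2 and Snhg5, with mean 0 h TPM from 45.7 to 59.5. The median 0 h TPM of members was 10.4, against 25.3 for all genes at the count limit.

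The rule has sharp limits, and genes lay close to them on both sides. Just inside the 2 h limit were Cstf1 and Cntn3, both at a ratio of 0.5, and Pfkfb3 at 0.498. Just outside were Sesn1, Meis1 and Actr8 at 0.502, 0.502 and 0.503. Just inside the limit on 6 h to 2 h were Tprn, Fam43b and Klhl28 at 2, 2.01 and 2.02. Just outside were A430005L14Rik, Abcb9 and Pou2f2 at 2, 1.99 and 1.99, where the first was under 2 before rounding. Membership of such genes turns on differences far smaller than those between replicates.

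The rule set no direct limit between 6 h and 0 h, although it used the same 6 libraries. It did bound this ratio from below, since TPM at 6 h had to be at least 2 times that at 2 h. A member over 0.25 of its 0 h TPM at 2 h was therefore over 0.5 of it at 6 h. This held for the 164 members over 0.25 and up to 0.4 and for the 141 over 0.4. Of the 381 members, 25 were at or under 0.5 of their 0 h TPM at 6 h, 89 were over 0.5 and under 0.8, and 13 were at 2 or more. The rest lay between 0.8 and 2, and 205 members in all were under their 0 h level. DESeq2 called 17 members (4.46%) lower at 6 h than at 0 h, where 10.2% of all tested genes were called lower. It called 15 members (3.94%) higher, where 9.1% of all tested genes were called higher. Both shares of the members were under those of all tested genes, but the rule shaped this contrast in advance, so nothing is read from them. The median log2 change of members at 6 h was 0.08, against 0.00 for all tested genes.

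Members that stayed low at 6 h were led by Parp16, with a log2 fold change of -2.42 (SE 0.43, DESeq2 adjusted p 1.3e-07). Harbi1 followed at -1.67 (SE 0.27, adjusted p 6.53e-09). Mterf1a, which encodes a mitochondrial transcription termination factor, was at 6.52 and 6.56 TPM at 0 h, then 0.63 and 0.18 at 2 h, then 1.89 and 2.59 at 6 h. Its log2 fold change at 6 h was -1.38 (SE 0.42, adjusted p 0.0029), on counts that were not whole. Zc3hav1l, a relative of the antiviral zinc finger protein ZAP, changed by -1.36 (SE 0.21, adjusted p 5.19e-10), and the clone-named 9130023H24Rik by -1.35 (SE 0.34, adjusted p 0.000344), also on counts that were not whole. The calls of Mterf1a and 9130023H24Rik were lost without either 0 h library (log2 fold changes of -1.37 to -1.38 and of -1.31 to -1.38), and that of Mterf1a also without 6 h replicate 1 (-1.16). Of these 5 genes, 4 held their coding sequence in 1, 2 or 4 exons, and Parp16 in 6.

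Members that overshot were led by Hunk, which encodes a protein kinase of the AMPK-related family. It was at 6.42 and 6.73 TPM at 0 h, then 3.5 and 3.02 at 2 h, then 33.38 and 31.91 at 6 h, a log2 fold change at 6 h of 2.50 (SE 0.14, DESeq2 adjusted p 9.38e-69). The 3 groups were apart, with 6 h highest. Nos1ap, which encodes an adaptor of neuronal nitric oxide synthase, was at 18.41 and 18.28 TPM, then 6.95 and 10.46, then 45.45 and 47.92, a change of 1.61 (SE 0.17, adjusted p 8.55e-21). Kctd6, an adaptor gene of a cullin ubiquitin ligase, rose to 44.37 and 41.68 TPM from 18.65 and 18.06 at 0 h, a change of 1.55 (SE 0.15, adjusted p 8.19e-23). Hcrtr2, which encodes an orexin receptor, rose to 8.37 and 7.86 TPM from 3.4 and 3.41, a change of 1.44 (SE 0.22, adjusted p 1.13e-09). On counts, none of these genes was called lower at 2 h: the log2 fold changes at 2 h vs 0 h were -0.83 for Hunk, -0.95 for Nos1ap, -0.49 for Kctd6 and -0.94 for Hcrtr2. For Kctd6 the 2 h value was at 0.457 of 0 h in TPM, a larger difference than in counts.

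Both hosts of the neuronal microRNA miR-124 at the count limit were members, and both overshot. Mir124a-1hg (ENSMUSG00000097545, chromosome 14, 64587331 to 64593961, plus strand) was at 11.74 and 11.14 TPM at 0 h, then 3.26 and 2.85 at 2 h, then 32.52 and 28.21 at 6 h. Its log2 fold change at 6 h was 1.55 (SE 0.15, DESeq2 adjusted p 8.67e-25). Mir124-2hg was at 17.47 and 18 TPM, then 8.96 and 4.25, then 36.66 and 38.14, a change of 1.19 (SE 0.51, adjusted p 0.0423). Each group stood apart from the others for both RNAs, although the 2 h replicates of Mir124-2hg differed more than 2-fold. These are levels of the long host RNAs and not of miR-124. Mir124-2hg was named after its values were seen.

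**Figure D2:**
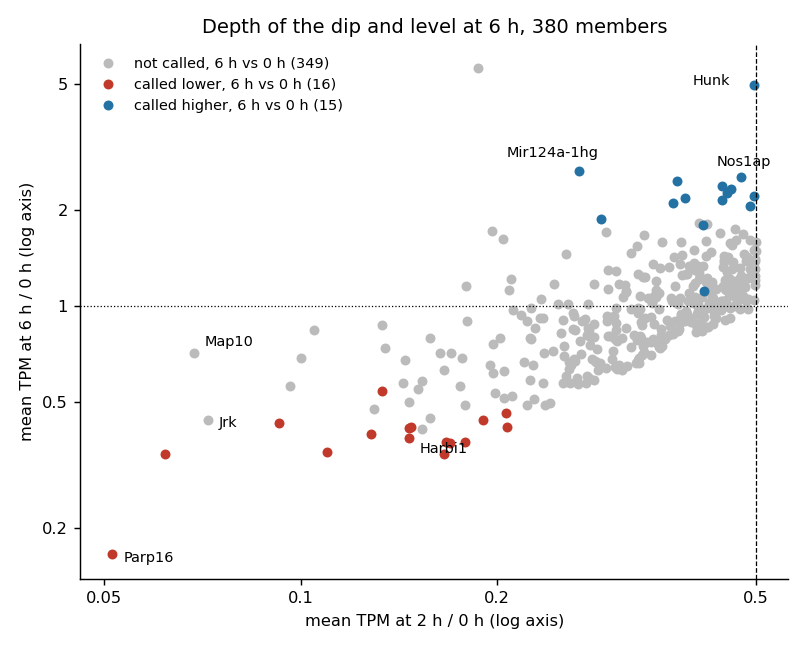
Mean TPM at 6 h relative to 0 h against mean TPM at 2 h relative to 0 h, both on log axes, for 380 members (Rps27, at 0 at 2 h, is left out), coloured by the DESeq2 call at 6 h vs 0 h. The 15 members called higher lie from Mir124a-1hg at 0.267 to Hunk and Mrtfa at 0.496, and the others called lower all lie at 2 h ratios of at most 0.207. The lower edge of the cloud is set by the rule.

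TPM and counts differed in some members. TPM is divided by an effective length and scaled to a library total, and counts are not. Effective lengths were tested with limma in 352 members. At 2 h vs 0 h no member was called (0.0356% of all tested genes were), with 32 at an unadjusted p under 0.05. At 6 h vs 2 h none was called (0.116% of all tested genes), with 36 under 0.05. The unadjusted counts were made for members only, without the share over all tested genes, so nothing is read from them. At 6 h vs 0 h 1 member was called, against 0.525% of all tested genes. This was Syne2, which encodes a giant nuclear envelope protein of the LINC complex. Its effective length was 3582 and 3724 bases at 0 h, then 6431 and 6203 at 2 h, then 7049 and 7564 at 6 h, so it was longer after depolarization in all 4 libraries. The log2 ratio at 6 h was 1.00 (adjusted p 0.0382), and the call was lost with a replicate block and without 0 h replicate 2, either 2 h library or 6 h replicate 2. Its expected counts went from 1390 and 1646 at 0 h to 1064 and 1038 at 2 h and 3182 and 3007 at 6 h, so its dip was smaller in counts than in TPM. Ttf1, named after its values were seen, was at 5.13 and 70.47 TPM in the 6 h libraries, with expected counts of 282 and 258. When DESeq2 normalized counts took the place of TPM in the rule, 287 of the 381 members still met it.

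The members were dropped by symbol, and some that remained nevertheless encode C2H2 zinc fingers. Of 370 members with a coding sequence, 24 (6.49%) encode at least 2 such fingers, against 4.46% of all genes at the count limit and 1.3% of those not dropped by symbol. Of these 24 genes, 12 carry clone names, such as Gm12258 with 8 fingers, 2610008E11Rik with 14 and Gm10778 with 14. Rsl1, a KRAB zinc finger repressor gene with 12 fingers, was at 5.86 and 5.91 TPM at 0 h, then 0.7 and 0.39 at 2 h, then 2.93 and 2.13 at 6 h. Klf15, a Krüppel-like transcription factor gene, was at 4.98 and 6.42 TPM, then 0.66 and 1.14, then 3.89 and 5.19. Prdm15, with 16 fingers, was at 6.88 and 7.02 TPM, then 3.18 and 3.26, then 12.56 and 11.81. The 2 h values were lowest in each, while at 6 h only Prdm15 was above its 0 h values. The 24 genes had a median 2 h to 0 h ratio of 0.301, and the other 346 coding members one of 0.354. The named regulators in this class were Gli2, Patz1, Ikzf4, Champ1, Scrt2, Rbak, Repin1 and Zup1, with ratios from 0.275 to 0.447.

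Many members had few introns. The coding sequence lay in 1 exon in 71 of 370 coding members (19.2%), against 5.47% of genes at the count limit and 4.88% of those that did not dip. The dropped dipping genes were at 14%. The whole transcript was in 1 exon in 28 members (7.57%), against 2.13%. The median member had 6 coding exons, against 9, and spanned 20762 bases of the genome, against 27383. Members were not short as mRNAs: the median transcript was 3591 bases, against 3241, and the median 3′ untranslated region 1302 bases, against 1147. Structure was not used by the rule, but genes are not replicates, so no test is given.

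Among genes not dropped by symbol, 12.7% of those with 1 coding exon were members. The share was 6.13% with 2 coding exons, 4.78% with 3 to 4, 2.05% with 5 to 8, 3.04% with 9 to 16, and 2.25% with 17 or more. The difference was also seen within quartiles of 0 h TPM, apart from the highest. The share of members fell with level, from 7.65% in the lowest quartile to 0.149% in the highest, and levels still differ within a quartile. In the lowest quartile of 0 h TPM 19.2% of genes with 1 coding exon and 6.63% of the others were members, in the next 14.3% and 3.94%, and in the one above that 9.78% and 1.24%. In the highest quartile 0 of 107 genes with 1 coding exon and 4 of 2571 others were members, so nothing could be compared there. Within quartiles of GC content the share was 10% to 16.2% for genes with 1 coding exon and 2.28% to 3.69% for the others. The dip was also somewhat deeper in members with 1 coding exon, with a median ratio of 0.3, against 0.359 for the other coding members.

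**Figure D3:**
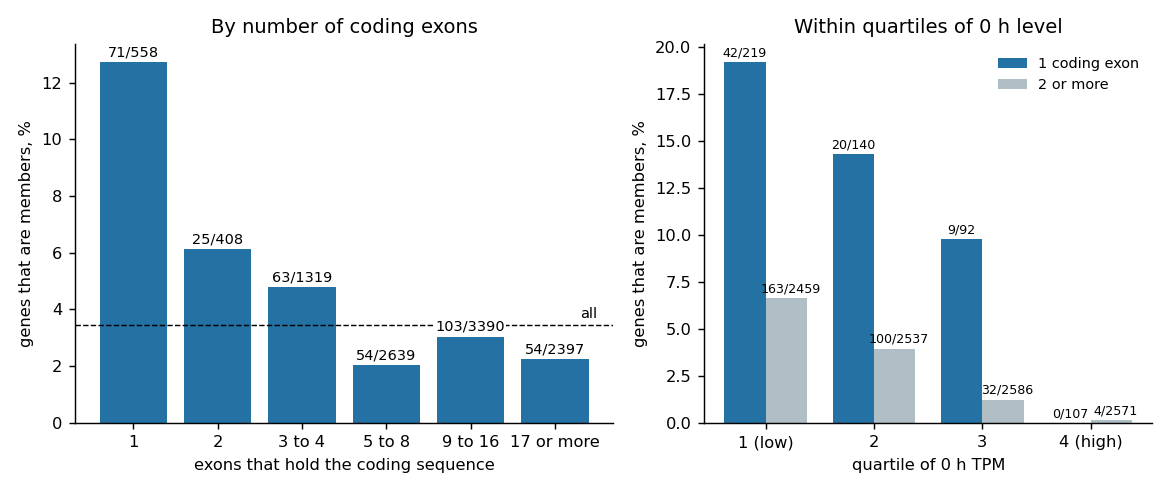
Share of genes that are members, in percent, by number of coding exons (left, dashed line for all) and by 0 h TPM quartile for genes with 1 and with 2 or more coding exons (right), each bar with its count. The share falls from 12.7% at 1 coding exon to 2.05% at 5 to 8, and is higher for 1 coding exon in the lower 3 quartiles.

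The 71 members with 1 coding exon have varied functions, and those named in this paragraph were picked after their values were seen. The synaptic adhesion genes Slitrk1, Slitrk3 and Slitrk5 were members, while Slitrk2 and Slitrk4, also at the count limit, were at 1.13 and 1 of their 0 h level. Slitrk1 was at 28.39 and 30.19 TPM at 0 h, then 8.19 and 9.15 at 2 h, then 30.46 and 35.75 at 6 h. Slitrk3 was at 29.93 and 30.94 TPM, then 11.33 and 11.77, then 30.63 and 31.33. Both returned to at least their lower 0 h value by 6 h, and their 2 h values lay far below. Of 9 genes derived from transposases (Jrk, Jrkl, Harbi1, Tigd2, Tigd3, Tigd5, Pogk, Pogz and Pgbd5) 5 were members, and the others were at 0.594 to 1.06 of their 0 h level. Pigc, which acts early in the making of glycosylphosphatidylinositol anchors, was at 23.67 and 21.77 TPM, then 4.33 and 5.06, then 8.99 and 11.96. Akap5, an anchor of protein kinase A at synapses, was at 19.81 and 17.41 TPM, then 8.72 and 7.82, then 24.57 and 24.77.

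Promoter sequence was examined as a feature that the rule did not use. RefSeq windows (GRCm38.p6) of 250 bases before to 50 after a start were found for 290 members, with 375 windows in all. Their median GC content was 60.7% with 20 CpG, against 61.7% and 21 at the count limit, 52.7% and 7 for all promoters, and 54% and 12.5 for the dropped dipping genes. Motifs were searched on both strands. The ETS element CCGGAAG was in 19.7% of the members' windows, against 17.7% at the count limit and 8.86% of all promoters. The CCAAT box was in 38.4%, 37.8% and 37.4%, the GC box GGGCGG in 61.9%, 63.9% and 35.7%, and the YY1 element AAGATGGC in 4.8%, 4.57% and 2.75%. The NRF1 element was in 8.8%, 10.3% and 4.6%, the E-box CACGTG in 10.4%, 10.1% and 7.15%, and the TATA box TATAAA in 6.67%, 6.71% and 13.6%. The cyclic AMP response element TGACGTCA was in 1.87%, 3.22% and 1.79%, the AP-1 element TGANTCA in 5.87%, 4.33% and 7.81%, and the heat shock element GAANNTTC in 5.07%, 5.45% and 7.86%. These shares are given with no test. A CCAAT box was in 54.3% of the windows of the dropped dipping genes.

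The 100 bases upstream of the start are shown for 5 members with deep dips, 1 or 2 coding exons and 1 annotated start, so that their promoters can be read side by side. Capitals mark matches to the ETS element, CCAAT box, GC box, NRF1 element or E-box on either strand. Each is read 5′ to 3′ in the direction of the gene on GRCm38.p6.
Map10, chr8:125669718-125669817, plus strand: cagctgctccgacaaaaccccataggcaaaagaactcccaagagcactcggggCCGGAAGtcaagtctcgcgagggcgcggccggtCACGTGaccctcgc
Wdr5b, chr16:36041090-36041189, plus strand: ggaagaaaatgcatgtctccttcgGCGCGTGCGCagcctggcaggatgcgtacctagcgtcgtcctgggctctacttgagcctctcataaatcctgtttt
Zswim3, chr2:164805014-164805113, plus strand: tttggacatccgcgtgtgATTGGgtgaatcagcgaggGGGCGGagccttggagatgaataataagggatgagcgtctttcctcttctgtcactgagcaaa
Jrkl, chr9:13245742-13245841, minus strand: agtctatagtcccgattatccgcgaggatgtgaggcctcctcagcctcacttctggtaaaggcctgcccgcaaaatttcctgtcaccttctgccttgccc
Ankrd49, chr9:14784574-14784673, minus strand: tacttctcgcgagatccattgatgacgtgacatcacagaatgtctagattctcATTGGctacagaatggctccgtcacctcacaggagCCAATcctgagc
These stretches hold different motifs, Jrkl holds none of those marked, and their GC content runs from 49% to 64%. A match in these letters is a description and not a bound site.

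A protein-coding gene started within 1000 bases on the opposite strand for 35 members (9.21%), against 10.4% of genes at the count limit. For 34 of them the partner was in the deposited tables, and 28 of these partners met the count limit. The median 2 h to 0 h ratio of the 28 was 0.874, against 0.891 for all genes at the count limit. Their ratios ran from 0.358 to 3.87, and 5 of the 28 (17.9%) were at or under 0.5, a share not counted over all genes. The members beside them had a median of 0.344. The rule held members at or under 0.5 and did not choose partners, so nothing is read from that gap. Of the 28, 3 (10.7%) were called lower at 2 h, against 7.08% of genes at the count limit. Harbi1 was at 0.146 of its 0 h TPM at 2 h and its partner Atg13 at 0.934. Trmt5 was at 0.225 and its partner Slc38a6 at 3.87, the highest of the 28. Both genes of 1 pair were members, Mfsd8 at 0.375 and Abhd18 at 0.358, and these are counted from both sides among the partners called lower.

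Base composition of the members' transcripts differed little from the background in its median, but this depended on the library and the scaling. The median exonic GC content of members was 47.8% (quartiles 43% and 53.4%), against 48.8% for all genes at the count limit and 42.9% for the dropped dipping genes. The replicates at 2 h differed by GC content, however, and this touches which genes were members. Across 379 members, Spearman's rho of GC content with the log2 ratio of 2 h replicate 1 to replicate 2 was -0.681, and over all genes at the count limit it was -0.683. The points share the same 2 libraries. In the quartile of members with the lowest GC content the median 2 h to 0 h ratio was 0.42 in replicate 1 and 0.316 in replicate 2, and in the highest 0.314 and 0.375. Of the members, 259 met the rule in each replicate alone, 34 only in replicate 1, 82 only in replicate 2 and 6 in neither alone. Libraries were joined by their replicate number for this. The members were chosen on the means of these same libraries, so the counts are a description and not a test of agreement. By replicate 1 alone the chosen genes had a median GC content of 49.8%, and by replicate 2 alone 44.9%. After the counts were corrected for GC content in each library, 281 genes met the rule, of which 245 were members. The median GC content of the 281 was 51.1%, above the 48.8% of all genes at the count limit. The coding sequence lay in 1 exon in 60 (22%) of the 273 coding genes among the 281. What set the replicates apart was not tested.

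**Figure D4:**
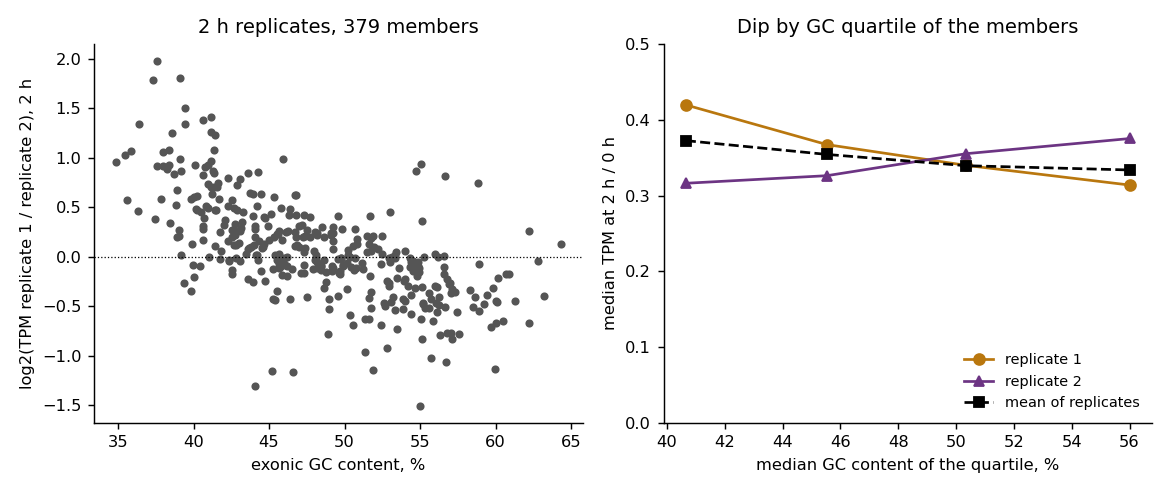
Left, log2 ratio of TPM in 2 h replicate 1 to replicate 2 against exonic GC content in percent, 1 point for each of 379 members. Right, median TPM at 2 h relative to 0 h in the members' 4 GC quartiles, for each replicate and their mean. Low-GC members lie mostly above 0 on the left, and on the right the replicates cross while the mean stays between 0.334 and 0.372.

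Among the lists with at least 20 genes at the count limit, that of RNA and tRNA modification held the largest share of members, 10 of 98 at the count limit (10.2%), against 3.31% of all genes at the count limit. The theme was taken from the study of these same libraries, so the count is not independent of it. The list as a whole moved less, with a median 2 h to 0 h ratio of 0.704, against 0.891. Of the 98, 17 (17.3%) were called lower at 2 h, against 7.08% of all genes at the count limit, and 1 higher. Between 2 h and 6 h 17 (17.3%) were called higher, against 10.6%, and 16 lower, against 975 of all 11512. At 6 h vs 0 h 23 were called lower, against 1350 of the 11512, and 5 higher. None of 58 tRNA ligases and processing genes was a member, 3 were called lower at 2 h and 1 higher, and the lists were not compared with each other. No list was tested, since the lists were chosen with earlier results known.

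Enzymes that act on tRNA made up most of the members in this list. Trmt1l, a tRNA methyltransferase-like gene, was at 20.43 and 21.65 TPM at 0 h, then 3.7 and 3.81 at 2 h, then 7.76 and 7.95 at 6 h. The 3 groups were apart, and 6 h stayed low. Trmt5, which methylates guanosine beside the anticodon, was at 13.14 and 12.68 TPM, then 2.92 and 2.88, then 10.32 and 10.24. Ctu1, which thiolates the wobble uridine, was at 11.32 and 13.27 TPM, then 2.23 and 2.95, then 6.09 and 6.76. Pus3, a pseudouridine synthase, was at 17.36 and 14.58 TPM, then 7 and 6.43, then 20.28 and 18.97, and so ended above its 0 h values. Rpusd4 and Mrm2, which modify mitochondrial ribosomal RNA, stood at 0.277 and 0.229 of their 0 h TPM at 2 h. Trdmt1, a cytosine methyltransferase of tRNA, was named after its values were seen and was at 6.06 and 7.07 TPM, then 1.95 and 1.57, then 4.89 and 5.35. The other members of the list were Lcmt2, Trmt12 and Rpusd2, with ratios from 0.205 to 0.339.

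**Figure D5:**
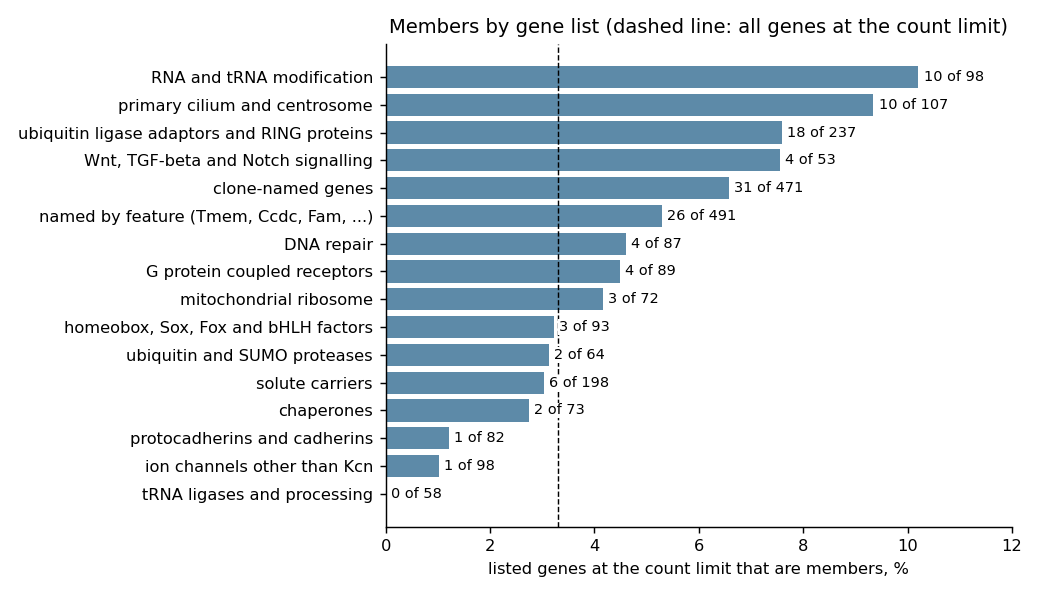
Share of listed genes at the count limit that are members, in percent, for the lists with at least 20 such genes, each bar with its count; the dashed line is the share over all genes at the count limit (3.31%). RNA and tRNA modification (10 of 98) and primary cilium and centrosome (10 of 107) lie farthest right, and tRNA ligases (0 of 58) at 0.

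Genes of the primary cilium and centrosome gave 10 members of 107 (9.35%). Tmem216, of the ciliary transition zone, was at 20.81 and 22.06 TPM at 0 h, then 2.89 and 3.89 at 2 h, then 10.67 and 8.46 at 6 h. Bbs5, a subunit of the BBSome that carries ciliary membrane proteins, was at 14.38 and 14.45 TPM, then 6.65 and 7.09, then 22.05 and 26.64. The former stayed low at 6 h and the latter overshot, so the members of this list did not share 1 course after the dip. Traf3ip1 and Ttc26, both of intraflagellar transport, were at 0.485 and 0.282 of their 0 h TPM at 2 h, and Tmem67 and Cep85l at 0.406 and 0.427. Of the 107 genes, 15 (14%) were called lower at 2 h, against 7.08% of all genes at the count limit, and 1 higher. Between 2 h and 6 h 12 (11.2%) were called higher, against 10.6%, and 28 lower, against 975 of all 11512. At 6 h vs 0 h 35 were called lower, against 1350 of the 11512, and 3 higher. After 2 h more of the list was thus called lower than higher, unlike its members.

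Ubiquitin ligase adaptors and RING proteins gave 18 members of 237 (7.59%). Asb8, a cullin adaptor gene, was at 29.98 and 31.42 TPM at 0 h, then 5.2 and 5.57 at 2 h, then 15.55 and 18.88 at 6 h. Kbtbd7, with 1 exon, was at 22.48 and 19.75 TPM, then 12.6 and 7.28, then 22.28 and 25.36. Trim13, which encodes a RING ligase of the endoplasmic reticulum, was at 32.36 and 31.77 TPM, then 18.5 and 13.37, then 43.27 and 40.8. Only Asb8 remained below its 0 h values at 6 h. March7, at 64.58 and 54.46 TPM, then 31.66 and 15.2, then 67.3 and 63.71, had 2 h replicates that differed more than 2-fold, and DESeq2 did not call it at 2 h (log2 fold change -0.69, adjusted p 0.0915). Rnf219 and Kctd1 were at 0.258 and 0.481 of their 0 h TPM at 2 h. In the whole list 15 genes (6.33%) were called lower at 2 h, against 7.08% of all genes at the count limit, and 3 higher. Between 2 h and 6 h 35 (14.8%) were called higher, against 10.6%, and 15 lower, against 975 of all 11512.

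Of 89 G protein coupled receptor genes 4 were members (4.49%), all with 1 coding exon. Drd1, the D1 dopamine receptor, was at 2.1 and 1.9 TPM at 0 h, then 0.54 and 0.57 at 2 h, then 1.54 and 1.47 at 6 h. Htr1b, a serotonin receptor, was at 3.01 and 3.3 TPM, then 1.55 and 1.15, then 4.15 and 2.61. Gpr61 was at 0.28 of its 0 h TPM, and Gpr17, a receptor of oligodendrocyte precursors, at 0.237. Among 198 solute carriers there were 6 members (3.03%) and among 82 cadherins and protocadherins 1, Cdh9, shares at or under that of all genes at the count limit. The other carriers named were Slc25a30, Slc31a2, Slc16a13, Slc25a42 and Slc26a2, at 0.134 to 0.358 of their 0 h TPM.

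Some members are known from glia. Sox8, a transcription factor of those cells, was at 0.284 of its 0 h TPM at 2 h, and Sox10 is described above with the deepest dips. Of 7 markers of the oligodendrocyte lineage at the count limit only Sox10 was a member, and no marker of neurons, astrocytes or dividing cells was. The summed TPM of the 8 oligodendrocyte-lineage markers was 129 and 152 at 0 h, then 98.9 and 116 at 2 h, then 124 and 134 at 6 h. That of the 9 astrocyte markers went from 4622 and 4701 to 4312 and 3753 and then 3446 and 3275. The members were chosen for their fall, so the size of these changes is not set against theirs. The part of these cells in the dips of Sox10, Sox8 and Gpr17 was not tested. In bulk RNA, fewer cells of a type and less RNA per cell cannot be told apart.

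The remaining lists are given in brief, where 3.31% of all genes at the count limit were members. Homeobox, Sox, Fox and bHLH factors gave 3 of 93 (3.23%) and ion channels outside the Kcn names 1 of 98 (1.02%). DNA repair had 4 of 87 (4.6%): Slx4, the checkpoint clamp gene Rad9a at 0.412 of its 0 h TPM at 2 h, Ercc6, of transcription-coupled repair, at 0.452 and the polymerase gene Polk at 0.357. The mitochondrial ribosome had 3 of 72 (4.17%), Mrps2, Mrpl44 and Mrpl1, at 0.225, 0.263 and 0.453. Wnt, TGF-beta and Notch signalling had 4 of 53 (7.55%), namely Lfng, which adds sugar to Notch, at 0.332, the ligand genes Inhbb and Bmp3 at 0.398 and 0.489, and Smad9 at 0.428. Senp7 and Usp53 were the 2 members of 64 ubiquitin and SUMO proteases, and Dnajc21 and Hspbap1 those of 73 chaperones. The snoRNA host Snhg5 was at 44.02 and 47.38 TPM, then 17.27 and 17.8, then 48.42 and 38.15, the 1 member of 7 such hosts. Genes known only by clone names gave 31 members of 471 (6.58%), and genes named by a protein feature, such as Tmem and Ccdc, 26 of 491 (5.3%). Members were spread over the genome, at 1.94% of genes at the count limit on chromosome X to 4.01% on chromosome 12, with none of the 13 such genes on the mitochondrial chromosome and none of the 6 on chromosome Y.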

How the data were processed

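RNA was selected for poly(A), made into stranded libraries and sequenced in pairs on a HiSeq 4000. The authors trimmed the reads, and, per the submitters' processing notes, RSEM 1.3.0, Bowtie2 2.2.9 and mm10 were used. The expected counts deposited by the authors are estimated reads per gene, not normalized. The TPM deposited by the authors are corrected for transcript length and scaled to 1 total per library. Effective lengths (bases), also deposited by the authors, are means over a gene's transcripts. The deposited FPKM were not used. The annotation release and RSEM's strand setting are not given in the sources used here, so overlapping genes are uncertain.

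Symbols, positions, GC content, exons and C2H2 fingers (in the translated coding sequence) came from GENCODE M21 on GRCm38, which may be another release than the authors'. It held 380 of the 381 members. Rounded counts were tested with DESeq2 1.42.0 (R 4.3.3), the tool and thresholds of the study, with settings chosen here: 6 libraries, group as the only term, Wald test, median-of-ratios factors, Benjamini-Hochberg adjustment, with calls made at adjusted p 0.05 and 1 on the log2 scale. Effective lengths were tested with limma 3.58.1 (trend, mean count of at least 100, log2 ratio of at least 0.2). The scripts were tested on simulated data. On DESeq2's scale the median log2 change of genes at the count limit at 2 h was 0.01, and on TPM -0.17. Replicates were labelled biological duplicates, and p-values measure the spread between these libraries.

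Named were the 15 deepest dips with whole counts (within 0.01) in at least 4 libraries and no overlapping gene with a mean count of 10 or more on the same strand, the 10 most abundant members, the 5 highest and 5 lowest at 6 h vs 0 h, up to 6 members per list, C2H2 genes, genes with a called effective length, and 3 on each side of each limit. Members, lists and tests were chosen with earlier results of these data known. Alternatives were edgeR 4.0.16, TMM factors, library totals, a mean count of at least 10, a replicate block, GC correction, leaving out each library, and other limits of the rule. Some genes are not reported here.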

Additional observations from a re-analysis of the deposited data

How the results depend on the processing

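The number of genes that met the rule was 381, and 1106 with ratios of 1.5 and 88 with ratios of 3 in place of 2. Leaving out 1 library gave 359 to 542, the highest without 2 h replicate 1, of which 337 were members. Members called lower at 6 h vs 0 h numbered 17, and 9 to 19 without 1 library, with 11 without 0 h replicate 1 and 9 without 0 h replicate 2. They numbered 30 with library totals, a scaling that moved the median of genes at the count limit by -0.24, and that also gave 1032 genes called higher over all genes at 6 h vs 0 h in place of 1572. Members with a called effective length at 2 h vs 0 h numbered 0 to 1 without 1 library, the 1 without 0 h replicate 1. The median GC content ran from 44.9% by replicate 2 alone to 51.1% after GC correction. The share of members with 1 coding exon, an addition made after seeing the data, ran from 15.7% to 22%. Most values of named genes counted next are of the contrasts that chose the members, so the rule largely set their direction. Of 2743 values of named genes under the alternatives, none changed direction, 118 fell below the threshold and 40 rose past it.

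Replicates share only a number in the labels. Deviations of same-numbered libraries correlated across 12290 genes at 0.281, 0.152 and -0.002 in the 3 comparisons. With the replicate number as a block, 295 members were called lower at 2 h vs 0 h and 365 higher at 6 h vs 2 h, while Syne2 lost its call of effective length at 6 h vs 0 h. The block changed no other count of members by over 1.5 times. Counts carry no molecular identifiers, and at 2 libraries a group the deepest dips rest on few reads, such as 6 in 2 h replicate 1 for Parp16.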
